A study of Mus musculus with 12 samples.

Results

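The MYC network is a family of transcription factors that bind DNA in pairs through a shared basic helix-loop-helix leucine zipper. The 8 members described here are the MYC family genes Myc, Mycn and Mycl, the common partner gene Max, and Mnt, Mga, Mlx and Mxi1, which encode other proteins of the MAX and MLX pairing scheme. They were taken by symbol, and all 8 were found in both deposited tables, among 22034 gene symbols with ribosome footprint counts and 49997 with poly(A) RNA counts. Footprints are the stretches of mRNA covered by ribosomes.

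The cells were ES-E14TG2a, a line of mouse embryonic stem cells, grown with LIF and the inhibitors CHIR99021 (GSK3) and PD0325901 (MEK). All of them, controls included, carried the release factor eRF1, which ends translation at stop codons, as a dTAG fusion that the compound dTAG-13 marks for degradation. The 4 footprint groups were untreated wild type, wild type with 500 nM dTAG-13 for 1 h, untreated Gcn2 knockout, and Gcn2 knockout with the same treatment. Gcn2 senses amino acid shortage and stalled ribosomes and slows initiation by modifying eIF2. Poly(A) RNA was sequenced in untreated and treated wild-type cells only. Each group had 2 biological replicates, A and B, giving 12 libraries. The labels name no vehicle control, no treated cells without the tag and no number of clones, so an effect of the compound and one of eRF1 loss cannot be told apart, nor can genotype and clone.

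MYC, N-MYC and L-MYC pair with MAX, bind the E-box CACGTG and activate genes for ribosome assembly, metabolism and growth. MNT and MXI1 pair with MAX at the same sites and recruit SIN3 corepressors, while MGA brings MAX into the polycomb complex PRC1.6, which silences germline genes in embryonic stem cells. MLX pairs with the glucose-sensing factors MondoA (Mlxip) and ChREBP (Mlxipl). Myc mRNA and MYC protein are both short-lived, and in stem cells Myc transcription responds to LIF and WNT signalling.

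The E-box, the DNA word that members of the network read, also lies near the start sites of some of their own genes. In RefSeq promoter windows of GRCm38.p6, from 250 bases before to 50 after each start, CACGTG was found for 3 (Mnt, Mlx and Max) of the 7 members in the table, which are all but Myc, against 8.09% of all 27025 genes and 7.15% of all 32851 windows. CACGTG reads the same on both strands. Each site is shown as 30 bases, 5′ to 3′ on the strand of the gene, with the E-box in capitals.
Mnt: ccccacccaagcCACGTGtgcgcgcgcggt
Mlx: ggtgggttggatCACGTGactgagcctcgc
Max: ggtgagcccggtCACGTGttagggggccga
The stretches lie at chr11:74830789-74830818 on the plus strand (Mnt), chr11:101087238-101087267 on the plus strand (Mlx) and chr12:76962234-76962263 on the minus strand (Max). Their E-boxes begin at position -123, -40 and -3 from the start used for the window, which in all 3 lies inside the gene span given below. A match is a description of these letters and not evidence of binding.

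In mm10, the build named by the submitters, Myc lies at chr15:61985341-61990361, Mycn at chr12:12936093-12941836, Mycl at chr4:122995588-123002490 and Max at chr12:76937269-76962323. Mnt lies at chr11:74830806-74845725, Mga at chr2:119872503-119970129, Mlx at chr11:101086707-101092207 and Mxi1 at chr19:53310128-53373293. The RefSeq span of Mlx overlaps the protein-coding gene Psmc3ip, that of Mxi1 the long non-coding RNA Gm30541 and that of Mga the pseudogene Gm13998. The rule for reads in shared stretches is not given.

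Library totals ranged from 7874804 to 19691716 footprint counts, treated wild-type library A being the smallest, and from 17462458 to 24256097 RNA counts. Footprints of Eif2ak4, the gene for Gcn2, were at 2.33 to 5.36 CPM (counts scaled to a common library size) in the 4 knockout libraries and at 27.7 to 34.0 in the 4 wild-type ones. It was the only gene of 12267 called between the untreated genotypes. The 8 markers of naive stem cells summed to between 5565 and 6143 CPM in footprints, against at most 10.7 CPM for 6 primitive endoderm markers and 14.9 CPM for 6 fibroblast markers. Pou5f1, a defining stem cell gene, had 1048 to 1395 footprint CPM but only 4.89 to 6.88 RNA CPM. Skp2, a gene for a MYC ubiquitin ligase, likewise had 32.6 to 57.7 footprint CPM but only 3.14 to 5.10 RNA CPM. Whether the 2 tables count every gene alike was not tested.

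CPM were computed with TMM-scaled library sizes. Changes are log2 ratios of treated to untreated from edgeR's quasi-likelihood test, with a standard error (SE) or a 95% interval. Calls were made where the p adjusted over all genes tested (Benjamini-Hochberg) was below 0.05. Coding lengths were not used, so levels are compared within a gene and never between genes.

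Myc was the one member called in any comparison. Its footprints rose 2.44-fold in wild-type cells after 1 h of dTAG-13 and its RNA rose 1.26-fold. The other members had smaller changes that did not pass, in footprints of either genotype, in RNA and in translational efficiency. None of the 8 passed in the difference between genotypes. Libraries with few Myc counts and only 2 replicates limit these statements, and the Myc calls did not hold in every alternative fit.

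Myc encodes the MYC protein itself, the activator at the centre of the network. In untreated wild-type cells it had 60 footprint counts in library A and 72 in library B, which is 3.00 and 4.02 CPM. In treated wild-type cells it had 63 and 122 counts, or 8.36 and 8.72 CPM. Both treated libraries lay above both untreated ones, and their 95% Poisson intervals, which cover counting error only, did not meet: the higher untreated interval ended at 5.06 CPM and the lower treated one began at 6.42 CPM. The log2 change was 1.29 (SE 0.320, 95% interval 0.60 to 1.98, adjusted p = 0.0382 in edgeR's quasi-likelihood test). Of all 12267 genes tested, 0.326% had a larger change.

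In that comparison 4.88% of genes tested were called, 2.94% as higher, and Myc was 1 of 8 members. The Myc call held in 7 of 13 alternative fits, with changes from 1.09 to 1.51 and adjusted p from 2.06e-05 to 0.171. It was lost without untreated wild-type library A (log2 change 1.09, adjusted p = 0.171), treated wild-type library A (1.32, 0.0929) or treated wild-type library B (1.26, 0.134), and also without either treated knockout library, which enters only through the shared spread. With the 4 wild-type libraries fitted alone the change was 1.29 with adjusted p = 0.0719. The direction was the same in all 13 fits.

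In knockout cells, Myc had 37 and 75 footprint counts without treatment (2.07 and 4.37 CPM) and 80 and 64 with it (6.88 and 4.40 CPM). The groups barely separate, since treated library B and untreated library B differ by less than their counting error. The log2 change of 0.80 (SE 0.331, 95% interval 0.08 to 1.51) had an adjusted p of 0.158 and did not pass, in a comparison where 8.88% of genes did, 3.16% as higher and 5.71% as lower. Leaving out untreated library A gave 0.35 and leaving out untreated library B gave 1.43.

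The knockout change of Myc minus the wild-type change was -0.49 (SE 0.461, 95% interval -1.49 to 0.51, adjusted p = 0.782 in edgeR). This interval includes no difference, a much weaker rise and a larger rise without Gcn2. The data therefore do not show whether the response depends on the kinase. Leaving out 1 library at a time gave differences from -0.94 (untreated knockout library A left out) to 0.14 (untreated knockout library B left out). In this comparison 0.0489% of genes were called (0.0163% higher and 0.0326% lower), none of them a member.

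Myc RNA had 957 and 961 counts in untreated wild-type cells (39.4 and 43.8 CPM) and 1246 and 919 in treated ones (52.1 and 52.9 CPM). Both treated libraries were above both untreated ones. The log2 change was 0.34 (SE 0.0711, 95% interval 0.20 to 0.48, adjusted p = 0.0148 by edgeR), and Myc was one of 19 genes called as higher, 0.119% of 15955 tested. In all, 26 genes or 0.163% were called, 0.0439% as lower.

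The RNA call held in 3 of 8 alternative fits. The 5 losses included those without treated library A (adjusted p = 0.248), treated library B (0.182) or untreated library A (0.191), where the change ranged from 0.26 to 0.35, and with DESeq2 (change 0.34, adjusted p = 0.512). Without untreated library B it passed at 4.23e-05 with a change of 0.42. No knockout RNA library was analysed.

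Translational efficiency is the footprint change minus the RNA change, and for Myc it was 0.96 in log2, or 1.94-fold (SE 0.207, 95% interval 0.50 to 1.41). With an adjusted p of 0.0540 in edgeR it fell just short of the threshold, which 1.47% of genes passed, 0.784% as higher and 0.691% as lower. It passed in 4 of 12 alternative fits, among them DESeq2 (0.96, adjusted p = 0.0137) and the fit without untreated footprint library B (1.17, adjusted p = 0.0114). The footprint change of Myc was thus larger than its RNA change in these libraries, by an amount at the edge of what the test calls. It compares counts, and the protein made was not measured. The counted region is not given, so footprints at or beyond stop codons cannot be told from those within coding sequence.

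A ratio taken within a library does not depend on how libraries are scaled. Per 100 Mycn footprints there were 2.84 and 3.99 Myc footprints in untreated wild-type libraries A and B and 6.70 and 7.75 in treated ones. The treated libraries were both above the untreated ones. In knockout cells the ratio was 2.46 and 4.10 without treatment and 6.55 and 4.04 with it, and the groups overlapped. In RNA it went from 20.2 and 21.4 to 25.9 and 26.3. This ratio was chosen after the values were seen and is given without a test.

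**Figure D1:**
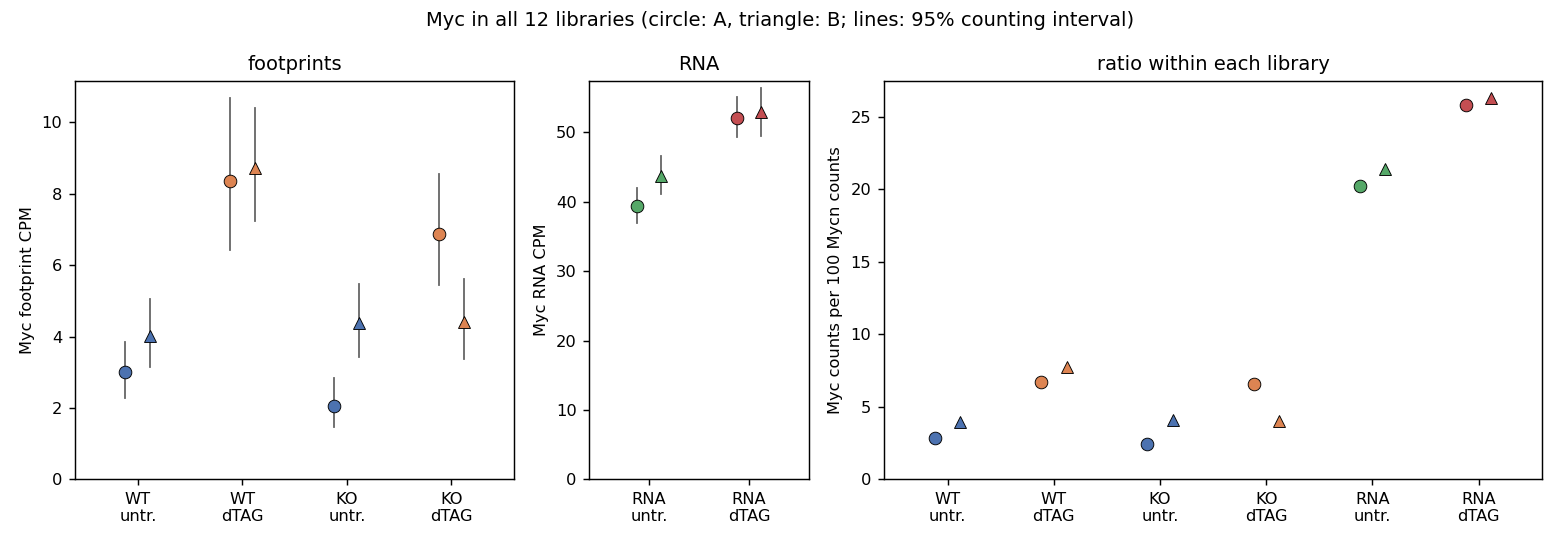
Myc in all 12 libraries: footprint CPM (left) and RNA CPM (middle) with 95% Poisson counting intervals, and Myc counts per 100 Mycn counts (right), by group (WT, wild type; KO, Gcn2 knockout; untr., untreated; dTAG, 500 nM dTAG-13 for 1 h). Treated wild-type footprints are at 8.36 and 8.72 CPM against 3.00 and 4.02 untreated, while knockout library B is at 4.37 untreated and 4.40 treated.

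Mycn encodes N-MYC, the family member best known from neural and embryonic cells. Its footprints were at 105 and 101 CPM in untreated and 125 and 112 CPM in treated wild-type cells. The treated libraries were both higher, by a log2 change of 0.20 (95% interval -0.08 to 0.48, adjusted p = 0.445), which did not pass. In knockout cells it had 84.1 and 106.7 CPM untreated and 105 and 109 CPM treated, with overlapping groups and a change of 0.17 (adjusted p = 0.471). Its RNA was at 195 and 205 CPM untreated and 202 and 201 CPM treated, a change of 0.01 with a 95% interval of -0.08 to 0.11.

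Mycl, which encodes L-MYC, had footprint CPM of 6.30 and 6.86 untreated and 6.10 and 6.86 treated in wild-type cells. Knockout values were 4.64 and 6.94 untreated and 5.50 and 6.46 treated. Treated and untreated values overlapped in both genotypes, and the changes were -0.01 (95% interval -0.51 to 0.49) and 0.05 (-0.45 to 0.55). With 46 to 126 footprints per library, these intervals are wide. Mycl RNA was 26.3 and 26.2 CPM untreated and 23.8 and 25.3 CPM treated (change -0.10, adjusted p = 0.993).

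Max encodes the partner that MYC proteins need to bind the E-box, and that MNT and the MXD proteins share. Its footprints were lower in both treated wild-type libraries, at 40.2 and 40.5 CPM, than in the untreated ones, at 49.3 and 45.4 CPM. The log2 change of -0.23 (SE 0.126, 95% interval -0.50 to 0.04, adjusted p = 0.352) did not pass. In knockout cells it went from 44.1 and 49.96 CPM to 43.5 and 44.9 CPM (change -0.09, adjusted p = 0.723). Max RNA was 75.3 and 71.9 CPM untreated and 66.2 and 71.7 CPM treated, a change of -0.10 (adjusted p = 0.950).

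Mnt encodes a repressor that competes with MYC for MAX. Its footprint CPM were 19.1 and 16.8 untreated and 27.3 and 20.6 treated in wild-type cells. In knockout cells they were 17.7 and 16.1 untreated and 20.2 and 21.2 treated. The treated libraries were above the untreated ones in both genotypes, by 0.40 (95% interval 0.03 to 0.77, adjusted p = 0.221) and 0.29 (-0.08 to 0.66, adjusted p = 0.319), and neither change passed. Leaving out the treated libraries in turn gave 0.19 (A left out) and 0.61 (B left out) in wild type. Mnt RNA was at 64.1 and 69.4 CPM untreated and 70.8 and 62.9 CPM treated (change 0.01, 95% interval -0.12 to 0.14).

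The ratio of Mnt to Max was taken within libraries. Per 100 Max footprints there were 38.8 and 37.0 Mnt footprints in untreated and 68.0 and 50.9 in treated wild-type cells. The knockout had 40.1 and 32.3 untreated and 46.4 and 47.1 treated. In RNA the ratio was 85.1 and 96.6 untreated and 107.0 and 87.7 treated, and there the groups overlapped. This pair was also chosen after its values were seen, so the separation in footprints is a description without a test.

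Mxi1 encodes a MAX-binding repressor of the MXD family. Its footprints had 6.69 and 6.58 CPM in untreated and 7.30 and 6.86 CPM in treated wild-type cells. In knockout cells it went the other way, from 6.49 and 6.99 CPM to 6.11 and 5.50 CPM. Neither change passed (0.09, adjusted p = 0.860, and -0.22, adjusted p = 0.532), nor did their difference of -0.31 (95% interval -0.89 to 0.28, adjusted p = 0.765 by edgeR). The counts were 55 to 134 per library. Mxi1 RNA was 29.9 and 30.7 CPM untreated and 28.2 and 29.8 CPM treated.

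Mga encodes the large MAX partner of PRC1.6. Its wild-type footprints were at 241 and 206 CPM untreated and 300.05 and 237 CPM treated, with overlapping groups (change 0.27, 95% interval -0.10 to 0.63, adjusted p = 0.428). Knockout values were 256 and 180 CPM untreated and 225 and 208 CPM treated (change -0.01, adjusted p = 0.977). Replicate A was above replicate B in all 4 footprint groups. Mga RNA was at 309 and 338 CPM untreated and 324 and 321 CPM treated (change -0.00, 95% interval -0.10 to 0.09).

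Mlx encodes the partner of MondoA and ChREBP. Its footprint CPM were 80.2 and 77.6 untreated and 68.9 and 79.5 treated in wild-type cells, and 71.0 and 73.4 untreated and 76.8 and 69.3 treated in the knockout. The groups overlapped in both genotypes. The changes were -0.09 (95% interval -0.35 to 0.18) and 0.02 (-0.24 to 0.28), the latter changing sign in 7 of 14 alternative fits. Mlx RNA was 44.2 and 42.7 CPM untreated and 44.7 and 45.8 CPM treated (change 0.06, adjusted p = 0.993).

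**Figure D2:**
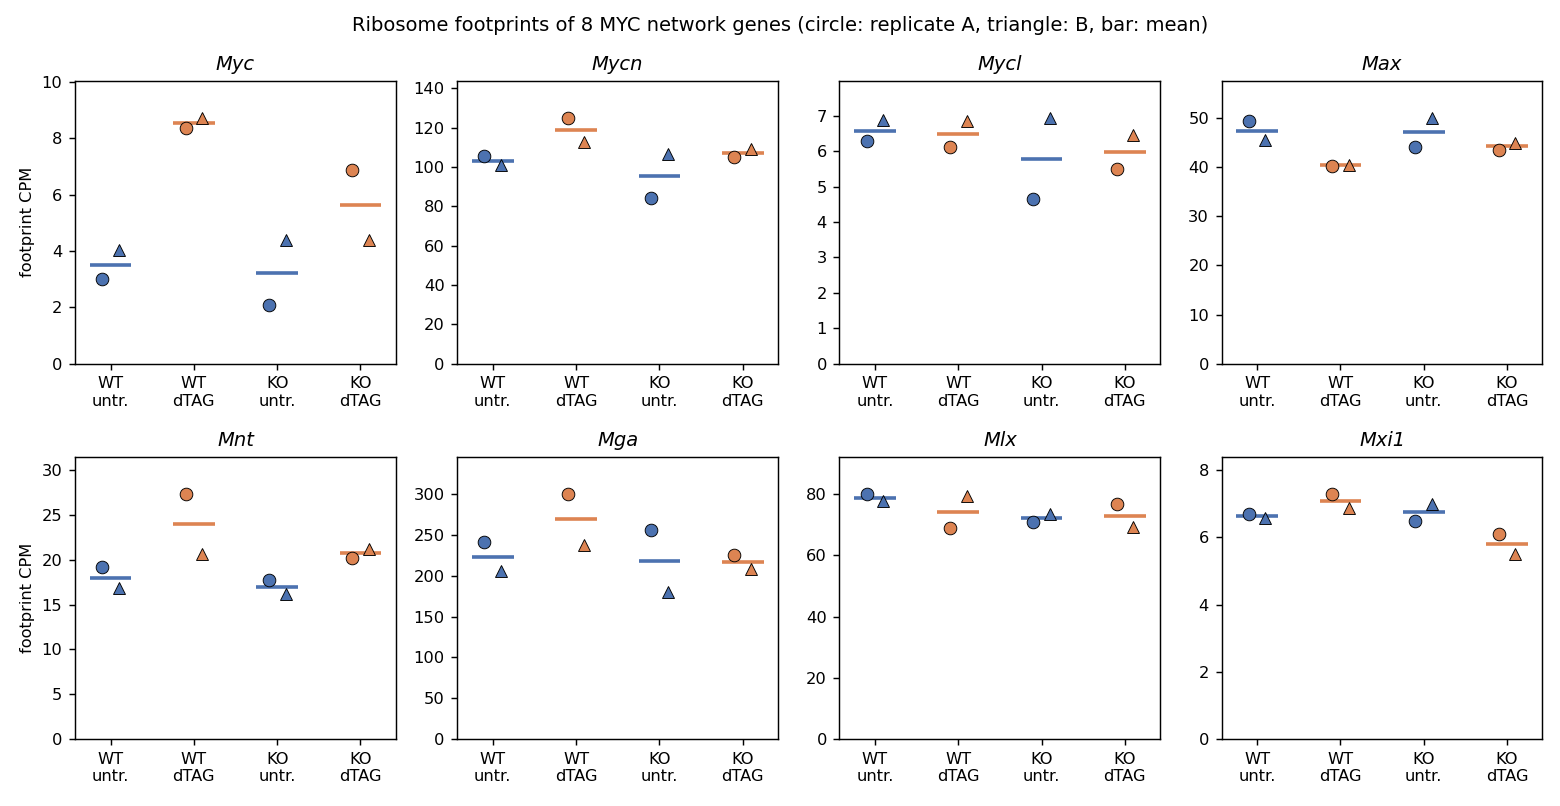
Footprint CPM of the 8 members by group, one panel a gene, with replicate A as a circle, B as a triangle and the group mean as a bar (axes start at 0 and differ between panels). Myc stands at 8.36 and 8.72 CPM in treated wild-type cells against 3.00 and 4.02 untreated, while Mycl, Mga and Mlx overlap between treated and untreated cells in both genotypes.

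Across the 8 members, both treated wild-type footprint libraries were higher than both untreated ones for 4 (Myc, Mycn, Mnt and Mxi1) and lower for 1 (Max). Among all genes with at least 10 counts, 21.6% were separated upwards in this way and 21.9% downwards. In the knockout 2 members were separated upwards (Myc and Mnt) and 1 downwards (Mxi1), against 30.9% and 25.5% of all genes. In RNA 2 were higher (Myc and Mlx) and 3 lower (Mycl, Max and Mxi1), against 16.8% of genes each way. Separation of 2 against 2 libraries was thus common in these data, and only the fitted test is read as a change.

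The median wild-type footprint change of the 8 was 0.14, with a range from -0.23 to 1.29, beside -0.01 over all genes. In the knockout it was 0.03 beside 0.04, and in RNA both medians were within 0.01 of 0. Between untreated genotypes no member was called (0.00815% of genes were, being Eif2ak4 alone). There the members' log2 differences, knockout minus wild type, ran from -0.19 for Mycl to 0.02 for Mxi1, and that of Myc was -0.12 (adjusted p = 0.962 by edgeR). For Myc it ran from -0.75 without untreated knockout library B to 0.32 without untreated knockout library A, and was 0.10 without untreated wild-type library B, so its direction is not settled. These intervals are wide for Myc, Mycl and Mxi1, whose footprints were few.

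**Figure D3:**
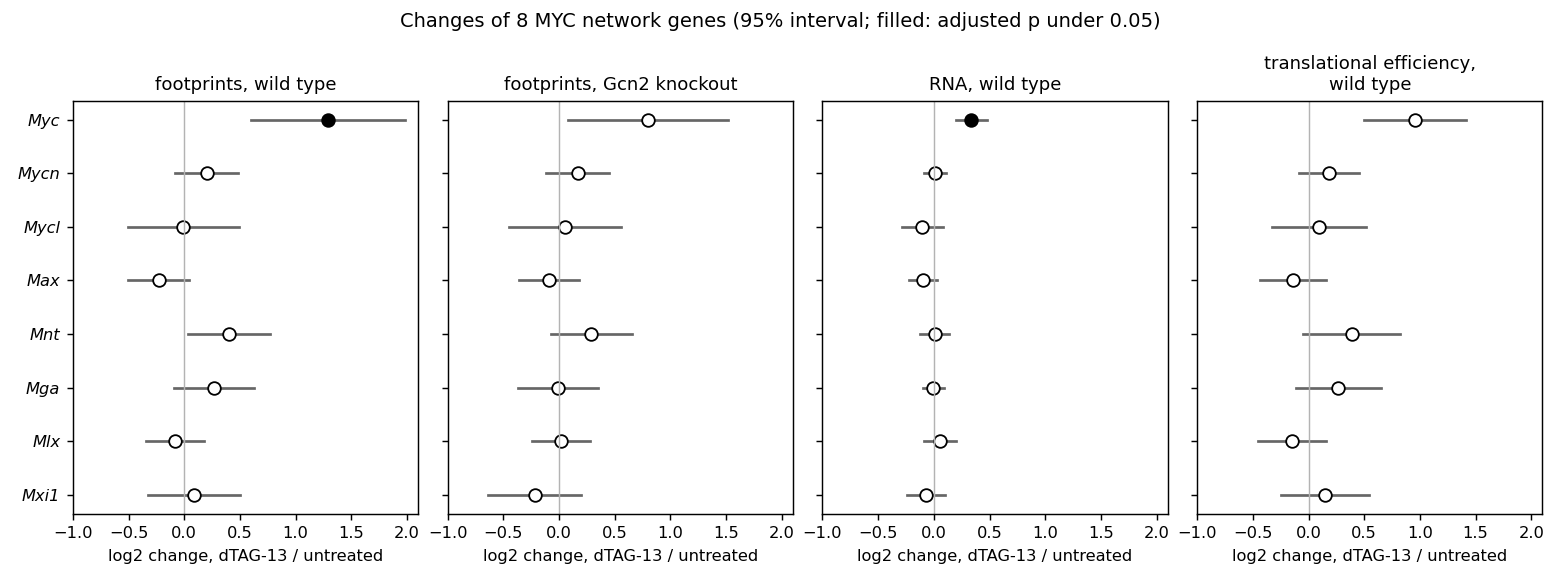
Log2 changes of the 8 members (treated over untreated) with 95% intervals in wild-type footprints, knockout footprints, wild-type RNA and wild-type translational efficiency. Filled points passed an adjusted p of 0.05: Myc in wild-type footprints (1.29) and in RNA (0.34). The intervals of Mycn, Mycl, Max, Mga, Mlx and Mxi1 include 0 in all 4 panels.

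Among the 8168 genes with a mean of at least 3 log2 CPM over the 8 footprint libraries, those most like each member in log2 CPM were taken by Pearson's r. For Mnt they were Rbm12 (0.979), Iars (0.972) and Rabggtb (0.970), and for Max Uck2 (0.969), Bcl3 (0.966) and Gins2 (0.964). Mga was nearest to Mcf2 (0.962), Ccnc (0.952) and Uty (0.947), Mycn to 2310033P09Rik (0.958), Elp5 (0.958) and Pprc1 (0.950), and Mlx to Mrpl52 (0.918), Igf2bp2 (0.901) and Zfp607b (0.865). These 8 points share libraries, depth and treatment, and the closest of 8168 genes were picked. Myc, Mycl and Mxi1 lay below the level used.

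The remaining MAX and MLX partners are the MXD repressor genes Mxd1, Mxd3 and Mxd4 and the MLX partner genes Mlxip and Mlxipl. In knockout cells both MLX partners rose, where 3.16% of all genes did, and the MXD genes did not pass. Mlxipl (ChREBP) went from 17.3 and 18.4 to 26.7 and 28.1 footprint CPM (log2 change 0.62, SE 0.142, adjusted p = 0.0170). Mlxip (MondoA) went from 10.3 and 11.6 to 16.5 and 17.4 CPM (0.63, SE 0.171, adjusted p = 0.0378). Both calls held in 10 of 14 alternative fits and were lost without any one of the knockout libraries.

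In wild-type cells Mlxipl had 16.1 and 17.3 CPM untreated and 23.1 and 24.3 CPM treated (0.51, adjusted p = 0.0652), and Mlxip had a change of 0.11 (adjusted p = 0.808). The difference between genotypes did not pass for Mlxipl (0.11, 95% interval -0.32 to 0.55) or Mlxip (0.53, -0.01 to 1.06). Txnip and Arrdc4, the best known target genes of MondoA and MLX, were not called in any comparison. Their wild-type footprint changes were 0.68 (adjusted p = 0.1198) and -0.69 (adjusted p = 0.0805).

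MYC protein turnover was represented by 16 genes for kinases, ubiquitin ligases and deubiquitinases. None passed in wild-type footprints, and 3 fell and none rose in knockout cells, where 5.71% of all genes fell. Gsk3b, whose kinase marks MYC for degradation, went from 60.2 and 60.9 to 32.9 and 28.7 CPM (log2 change -0.98, SE 0.143, adjusted p = 0.00133) and kept its call in all 14 alternative fits. The MYC ubiquitin ligase gene Skp2 (-0.57) and the deubiquitinase gene Usp37 (-0.55) fell as well. Both were also lower in wild type without passing, Skp2 by -0.49 (adjusted p = 0.102 by edgeR) and Usp37 by -0.25 (0.321). Their differences between genotypes, -0.08 and -0.30, did not pass. In wild-type cells Gsk3b had 64.5 and 73.5 CPM untreated and 50.7 and 63.0 treated (-0.27, adjusted p = 0.313), and the difference between genotypes did not pass (-0.70, adjusted p = 0.255).

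Of 16 genes for RNA-binding proteins that control decay and translation of Myc mRNA, 1 rose in wild-type footprints, where 2.94% of all genes did. In knockout cells 1 rose and 2 fell, beside 3.16% and 5.71% of all genes. Igf2bp1, whose product binds Myc mRNA and shields it from decay, fell in the knockout from 414 and 437 to 237 and 239 CPM (log2 change -0.84, SE 0.117, adjusted p = 0.00102). In wild-type cells it had 367 and 373 CPM untreated and 398 and 332 CPM treated (-0.02, adjusted p = 0.954). The difference of -0.82 between genotypes did not pass (95% interval -1.17 to -0.46, adjusted p = 0.114 by edgeR).

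Its relative Igf2bp3 rose in wild-type cells, from 101 and 123 to 160 and 175 CPM (0.58, adjusted p = 0.0179), and had a knockout change of 0.21 (adjusted p = 0.335). Ybx1, for a cold shock domain protein that packages mRNA, rose in the knockout from 603 and 698 to 1141 and 1180 CPM (0.84, SE 0.128, adjusted p = 0.00173), and the poly(C)-binding protein gene Pcbp1 fell (-0.54). The calls for Igf2bp1 and Ybx1 held in all 14 alternative fits. That for Igf2bp3 held in 11 of 14.

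Among 11 genes of the LIF and WNT pathways that feed Myc transcription, Socs3 was called in RNA and in knockout footprints, in opposite directions. Socs3, a feedback inhibitor induced by LIF and STAT3, rose in wild-type RNA from 143 and 146 to 172 and 174 CPM (log2 change 0.26, SE 0.0505, adjusted p = 0.00435), where 0.119% of all genes rose. That call was lost without either treated RNA library. Its footprints fell in the knockout from 42.6 and 52.5 to 24.7 and 26.7 CPM (-0.89, adjusted p = 0.0289). In wild-type footprints they had 53.3 and 48.5 CPM untreated and 37.2 and 20.3 treated (-0.86, adjusted p = 0.0521). The WNT feedback gene Axin2 fell in knockout footprints (-0.59, adjusted p = 0.0362). These 2 of 11 stand beside 5.71% of all genes that fell in the knockout.

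Genes known to be activated by MYC were followed with a list of 37, of which 36 were tested. In wild-type footprints 5 rose and 1 fell, beside 2.94% and 1.94% of all genes. The list median was 0.15, beside -0.01 over all genes, and 29 of 36 changes were above 0. In the knockout 23 of 36 were above 0. Over all genes 48.5% had a wild-type change above 0.0035 and 54.5% a knockout change above 0.0001. Earlier results of these data were known when the list was made, so these counts are a description without a test. In RNA none of the 36 passed and the median was -0.02. Ncl, for the nucleolar protein nucleolin, went from 982 and 1208 to 1964 and 1983 footprint CPM (log2 change 0.85, SE 0.149, adjusted p = 0.00712), with an RNA change of -0.02. Its call held in 12 of 14 alternative fits and was lost without untreated library A and with wild type fitted alone. The ribosome assembly genes Mybbp1a (0.59), Ddx18 (0.58) and Rrp12 (0.45) also rose. Their calls held in 9, 10 and 8 of 14 alternative fits, and all were lost with wild type fitted alone. In the knockout Ncl (0.28), Mybbp1a (0.32), Ddx18 (0.25) and Rrp12 (0.35) had smaller changes in the same direction that did not pass. For none of these genes did the difference between genotypes pass.

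The remaining riser, Cad of pyrimidine synthesis (0.81), and the faller, Odc1 of polyamine synthesis (-0.72), are named after their values were seen. Their changes ranged over the alternative fits from 0.49 to 1.22 and from -1.08 to -0.44, and the calls held in 7 and 6 of 14. Cad had a knockout change of 0.38 (adjusted p = 0.258 by edgeR). In the knockout Odc1 had a change of 0.48 (adjusted p = 0.102), and its difference between genotypes of 1.20 (95% interval 0.67 to 1.73, adjusted p = 0.114 by edgeR) did not pass. For translational efficiency 2 of the 36 were higher, Ncl (0.87, adjusted p = 0.0317) and Ddx18 (0.63, adjusted p = 0.0419), where 0.784% of all genes were. These calls held in 7 and 6 of 12 alternative fits, and both were lost without any one RNA library. The list was assembled with earlier results of these data known, and many of its genes belong to ribosome assembly.

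In knockout cells 2 MYC-activated genes rose, Nop56 (0.59) and Nme2 (0.91), and 3 fell, Nme1 (-0.78), Shmt1 (-0.48) and Hk2 (-0.48), the last named after its value was seen. Over all genes 3.16% rose and 5.71% fell there. The list median was 0.12 beside 0.04 over all genes. In wild-type cells Nop56 (0.52), Nme2 (0.41) and Nme1 (-0.34) changed in the same direction, while Shmt1 (0.05) and Hk2 (0.45) did not. None of these wild-type changes passed. The differences between genotypes did not pass either, that of Hk2 being -0.93 (95% interval -1.34 to -0.52, adjusted p = 0.114 by edgeR). Nme1 and Nme2 encode near-identical kinases, so their opposite values are uncertain, since the rule for reads that fit both is not given. CACGTG was found for 10 of the 31 listed genes that have a promoter window, or 32.3%, against 8.09% of all genes. Mybbp1a was among them, Ncl, Ddx18, Cad and Odc1 were not, and Rrp12 had no window. Sequence outside these windows was not searched.

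Of 20 genes for cofactors of MYC and the MXD repressors, the elongation factor gene Paf1 rose in wild-type cells (0.48, adjusted p = 0.0451), beside 2.94% of all genes. Its call held in 7 of 14 alternative fits and was lost without any one wild-type library. The helicase gene Ruvbl1 (-0.49) and the promoter-binding gene Hcfc1 (-0.39) fell in the knockout, beside 5.71% of all genes. The 9 other subunits of PRC1.6, which Mga and Max join, had no call in any comparison, with medians of -0.05 in wild-type and 0.16 in knockout footprints. The same held for 18 germline genes that this complex silences, of which 16 passed the filter in footprints and 13 in RNA. The germline medians were -0.19 in wild-type footprints, -0.13 in knockout footprints and 0.01 in RNA. Over all genes 4.88% were called in wild-type and 8.88% in knockout footprints, so lists this short would hold few calls. SEs of the germline genes in wild-type footprints ran from 0.14 (Dazl) to 0.69 (Mael). The absence of calls in these 2 lists does not show that their genes were unchanged. Of the 17 germline genes with a promoter window, 11 held CACGTG (64.7%), the highest share among the 10 lists.

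**Figure D4:**
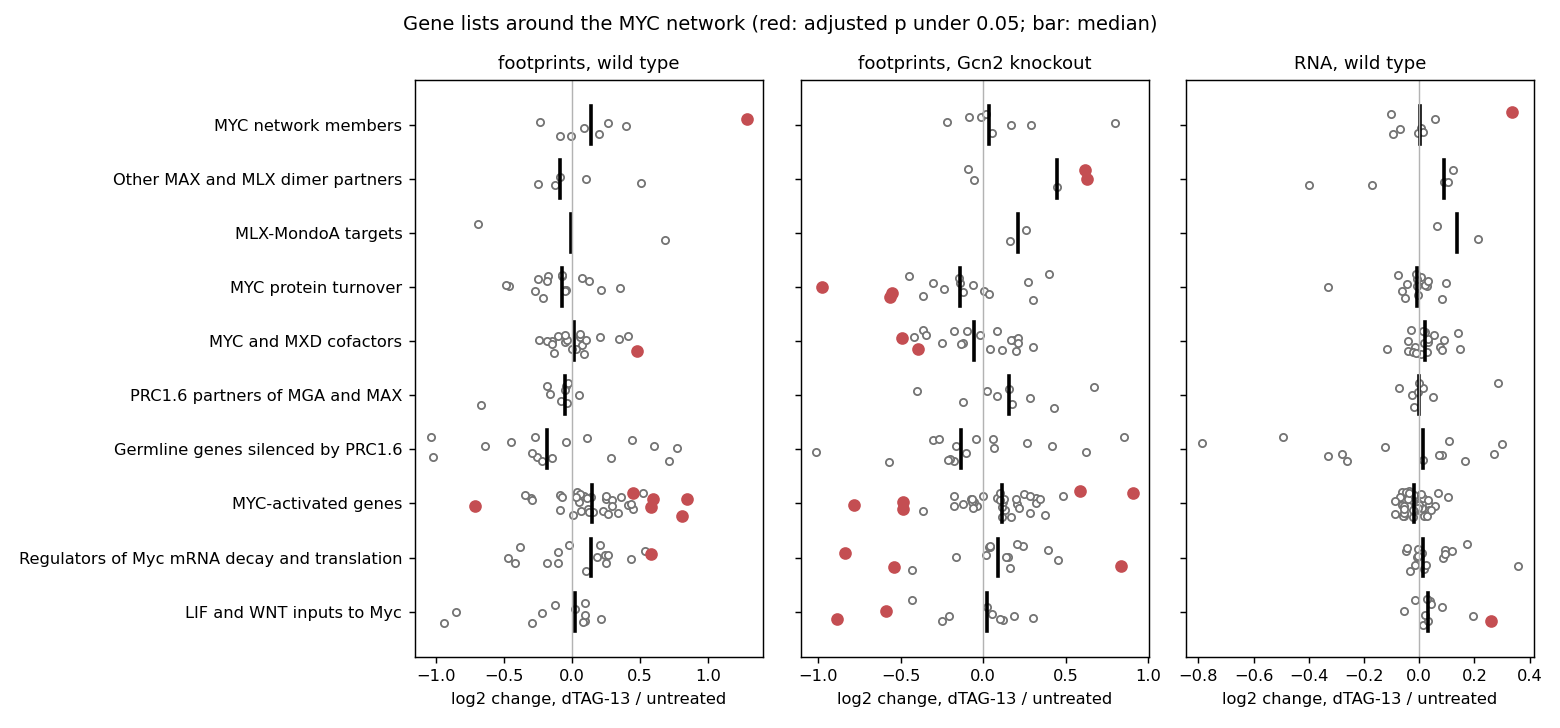
Log2 change (treated over untreated) of each tested gene in 10 lists around the MYC network, for wild-type footprints, knockout footprints and wild-type RNA (x axes differ). Red points passed an adjusted p of 0.05 and black bars mark list medians. MYC-activated genes have a median of 0.15 in wild-type footprints and -0.02 in RNA.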

How the data were processed

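Raw counts per gene symbol, deposited by the authors as 1 table for 8 footprint libraries and 1 for 4 RNA libraries, were used as they stand. Tools named in the submitters' processing notes are HISAT2 2.1.0, CASAVA 1.4 and cutadapt, with build mm10. Counting tool, annotation, strand setting and counted region: not given in the sources used here. Columns were matched by genotype, treatment and letter. Treated knockout replicate B, whose description names the column of A, was matched by its title.

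The test was edgeR 4.0.16 under R 4.3.3 (filterByExpr with a minimum count of 10, TMM, robust quasi-likelihood fit, Benjamini-Hochberg adjustment, two-sided). One fit took all 8 footprint libraries (12267 genes, 4 residual degrees of freedom) and another the 4 RNA libraries (15955 genes, 2 residual degrees of freedom). Translational efficiency came from an assay-by-treatment interaction in the 8 wild-type libraries (12887 genes). For it, 20050 symbols were joined as written and 82 by RefSeq synonyms, and 1902 were not joined. SEs were derived from the F statistic. DESeq2 1.42.0 was an alternative. Scripts were tested on simulated data.

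In every group the replicates varied beyond counting error (chi-squared per degree of freedom from 2.76 to 23.7). Counts are shares of a library, so a change common to all mRNAs was not measured. The members and the 9 other lists were chosen with earlier results of these data known. Genes named are the 8 members and up to 4 called genes a list and comparison with the smallest adjusted p, plus the 3 genes most like each member of at least 3 log2 CPM.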

Additional observations from a re-analysis of the deposited data

Results flagged for a closer look

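Mxi1 footprints were higher in both treated than in both untreated libraries in wild-type cells and lower in both in the knockout. The difference between these changes, knockout minus wild type, was -0.31 in log2, with an adjusted p of 0.765 in edgeR, so the difference itself did not pass.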

How the results depend on the processing

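Over the alternatives, 561 of the members' values kept their side of the threshold, 6 passed anew and 11 no longer passed. None that was called reversed. Some values that were not called changed sign, such as that of Mlx in knockout footprints in 7 of 14 fits. Without a filter on low counts, genes called numbered 1048 in wild-type footprints, 1658 in knockout footprints, 192 in the difference, 113 between untreated genotypes and 459 in translational efficiency, and members called numbered 1 in the knockout and 1 in translational efficiency, Myc each time. DESeq2 called 116 genes in the difference, 31 between untreated genotypes, 8 in RNA (members 0) and 435 in translational efficiency (members 1), and gave the wild-type footprints of Myc no adjusted p. With 1 genotype fitted alone, 19 genes were called in wild type (members 0) and 1893 in the knockout. The cause was not tested.

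Leaving out 1 library at a time gave 197 to 659 genes called in wild-type footprints (members 0 to 1), 215 to 1353 in the knockout (members 0), 0 to 32 in the difference, 1 to 10 between untreated genotypes, 14 to 267 in RNA (members 0 to 1) and 0 to 671 in translational efficiency (members 0 to 1). The 0 calls in edgeR came without any one knockout library for the difference (658 to 1561 genes at an unadjusted p under 0.05) and without any one RNA library for translational efficiency (1191 to 1284 genes). A fit that leaves a group with 1 library assumes that it varies like the others. Of 28 calls in the other lists, 3 held in every alternative (Gsk3b, Igf2bp1 and Ybx1 in the knockout). The wild-type footprint calls for Cad, Ddx18, Igf2bp3, Mybbp1a, Ncl, Odc1, Paf1 and Rrp12 were each lost with wild type fitted alone. The knockout calls for Axin2, Hcfc1, Hk2, Mlxip, Mlxipl, Nme1, Nme2, Nop56, Shmt1, Skp2 and Socs3 were each lost without any one knockout library, and those for Pcbp1, Ruvbl1 and Usp37 without some.

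The letters A and B mark no shared batch in the labels, so replicates were not treated as paired. Deviations of same-lettered libraries correlated over genes at 0.626 in wild-type footprints, 0.145 in the knockout and 0.0179 in RNA. With a replicate block, 931 genes were called in wild-type footprints, 39 in the difference, 14 between untreated genotypes, 16 in RNA (members 0, so the Myc call was lost) and 1561 in translational efficiency (members 1). With a replicate block within genotype, 2109 were called in wild-type footprints (members 2, Myc and Mnt), 3149 in the knockout and 733 in the difference. Levels per coding length were not run. Low counts of Myc, Mycl and Mxi1 limit their footprint values.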
